A study of Mus musculus with 8 samples.

Results

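The circadian clock genes were described in RNA sequencing of mouse primary hepatocytes cultured on a soft or a stiff hydrogel, with and without Yap and Taz. They were chosen by name as 10 rows of the deposited count table: Clock and Npas2, Per1, Per2 and Per3, Cry1 and Cry2, Nr1d1 and Nr1d2, and Dbp. The table lists 56748 genes, of which 14279 had enough counts to be tested, and all 10 clock genes were among the tested genes. C57BL/6J mice carrying floxed alleles of both genes (Yap fl/fl; Taz fl/fl), aged 7 to 8 weeks, received AAV8-TBG-Cre or AAV8-TBG-Null by vein. AAV8 is an adeno-associated virus that reaches the liver, and TBG is the thyroxine-binding globulin promoter, which drives Cre in hepatocytes. Mice given the Cre virus are called Yap/Taz HepKO (KO) and controls given the null virus, which carry the same floxed alleles, wild-type (WT). After 10 days hepatocytes were isolated and plated on collagen-coated hydrogels of 1 kPa (soft) or 20 kPa (stiff), and RNA was collected 24 h later. Each of the 4 groups (WT soft, WT stiff, KO soft, KO stiff) held 2 libraries. The labels give the sex of the mice in conflicting ways, and whether the libraries of a group came from separate animals, and the time of day of isolation and collection, were not given in the sources used here.

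The clock is a feedback loop of transcription that runs in nearly every cell and gives many liver genes a daily rhythm. CLOCK, or its relative NPAS2, pairs with BMAL1 (the product of Arntl) and activates genes carrying E-boxes. Among these genes are the Per and Cry repressors, whose proteins return to block the activators, and Nr1d1 and Nr1d2, nuclear receptors also called REV-ERBα and REV-ERBβ that repress Arntl and Npas2. Dbp, another target of the activators, encodes a transcription factor that binds D-boxes and carries the rhythm to metabolic genes of the liver. All libraries were taken at 1 time after plating, so a shift in the phase of a rhythm and a change in its mean level cannot be told apart.

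The promoter windows below are the 250 bases before the annotated start, from RefSeq (GRCm38.p6), which gave a window for 9 of the 10 genes. Per2 had none. The windows of Per3, Cry1, Nr1d1 and Nr1d2 are shown as examples of each kind of match in the 10 genes, and that of Ciart, a clock repressor outside the 10 genes, because it holds the E-box 3 times. Capitals mark the matches on either strand to the E-box CACGTG, the E-box variant CACGTT, which lies on the other strand in the windows shown and so appears as its reverse complement, the D-box TTATGTAA, the core AGGTCA bound by ROR and REV-ERB receptors, and GGAATG, the core bound by TEAD factors, the DNA-binding partners of YAP and TAZ. Each sequence runs 5′ to 3′ towards the start.
Per3 (chr4:151044666-151044915, minus strand): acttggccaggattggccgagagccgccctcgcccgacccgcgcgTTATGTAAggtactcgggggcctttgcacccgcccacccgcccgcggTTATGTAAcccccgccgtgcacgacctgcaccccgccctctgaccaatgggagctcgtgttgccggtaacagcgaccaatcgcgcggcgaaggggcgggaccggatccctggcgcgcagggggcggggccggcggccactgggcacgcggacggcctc
Cry1 (chr10:85185055-85185304, minus strand): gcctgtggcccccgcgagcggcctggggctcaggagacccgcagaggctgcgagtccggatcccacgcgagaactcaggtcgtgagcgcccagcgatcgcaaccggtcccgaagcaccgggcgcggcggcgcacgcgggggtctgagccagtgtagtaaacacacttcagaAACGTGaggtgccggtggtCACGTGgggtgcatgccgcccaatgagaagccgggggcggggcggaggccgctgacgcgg
Nr1d1 (chr11:98775378-98775627, minus strand): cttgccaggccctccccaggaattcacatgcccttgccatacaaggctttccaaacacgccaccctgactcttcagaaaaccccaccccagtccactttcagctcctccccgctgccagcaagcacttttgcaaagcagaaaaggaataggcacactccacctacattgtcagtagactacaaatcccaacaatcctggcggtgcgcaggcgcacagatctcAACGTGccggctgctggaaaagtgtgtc
Nr1d2 (chr14:18239107-18239356, minus strand): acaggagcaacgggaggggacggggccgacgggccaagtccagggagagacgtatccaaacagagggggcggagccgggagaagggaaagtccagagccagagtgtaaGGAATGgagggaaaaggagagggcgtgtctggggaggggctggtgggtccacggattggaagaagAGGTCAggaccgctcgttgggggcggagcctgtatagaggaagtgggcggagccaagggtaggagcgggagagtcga
Ciart (chr3:95882229-95882478, minus strand): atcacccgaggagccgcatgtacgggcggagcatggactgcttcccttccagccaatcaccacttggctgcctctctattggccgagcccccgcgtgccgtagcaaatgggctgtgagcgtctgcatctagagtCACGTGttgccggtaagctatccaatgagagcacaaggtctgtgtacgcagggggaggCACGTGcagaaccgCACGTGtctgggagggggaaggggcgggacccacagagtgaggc

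Per3 held 2 D-boxes, from 205 to 198 and from 158 to 151 bases before the start, a motif found in 0.819% of all 32851 windows of this length. Cry1 held an E-box 60 to 55 bases before the start and the variant 79 to 74 bases before it. The E-box was present in 6.02% and the variant in 3.85% of all windows. Nr1d1 held the variant 28 to 23 bases before the start, and Cry2 held it 166 to 161 bases before. Per1, with 2 windows, held an E-box and AGGTCA in the first, while Clock, with 3 windows, held AGGTCA in the third. Nr1d2 held AGGTCA, found in 14.0% of all windows, and GGAATG, found in 12.6%. The cAMP response element TGACGTCA, present in 1.55% of all windows, was in none of those of the clock genes. Dbp and Npas2 held none of these letters in their windows. Genes with a D-box, with the E-box variant and with no match were all among those that fell on the stiff hydrogel, as given below, and a match in such a window is a description of the letters only.

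The libraries held between 18324083 and 26442310 counts. Values are given as CPM, the count divided by the TMM-scaled library size on the scale of edgeR's cpm function. Where a library has 0 counts, up to 3 could have been missed (95% confidence, counting error only), which is 0.116 to 0.167 CPM. The lowest value of any clock gene, 18 counts of Npas2 in a KO stiff library, was above this limit. Yap1 was 97.7 ± 3.01 CPM in WT soft and 137.6 ± 4.07 CPM in WT stiff, against 30.5 ± 1.89 CPM in KO soft and 29.9 ± 2.08 CPM in KO stiff (SD, n = 2 each). Wwtr1, which encodes TAZ, was 42.0 ± 0.663, 64.6 ± 0.956, 16.3 ± 0.396 and 14.7 ± 1.42 CPM in the same order (SD, n = 2 each). The knockout libraries thus carried less of both targeted transcripts on either hydrogel. The 8 hepatocyte markers, among them Alb and Apoa1, summed to 102651 to 108183 CPM in the WT libraries and to 71616 to 72254 CPM in the KO libraries. Alb made up most of each sum, at means of 81923, 86595, 54977 and 54678 CPM in WT soft, WT stiff, KO soft and KO stiff. By group means, Alb, Cps1 and Trf were lower in KO on either hydrogel, and Ttr and Hnf4a higher. Apoa1, Apob and Fgb had lower means in KO on soft and higher ones on stiff. In WT, Hnf4a and Fgb were called lower on stiff (log2 fold changes -0.98 and -0.60 in edgeR). On stiff, Hnf4a was called higher in KO (1.17), and Alb (-0.66), Cps1 (-0.68) and Trf (-0.75) lower. Their part in the clock gene results was not tested.

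The first question was which clock genes differ between wild-type hepatocytes on the stiff and on the soft hydrogel. A gene was called changed at an adjusted p under 0.05 with an absolute log2 fold change over 0.5 in edgeR's quasi-likelihood test, adjusted over all tested genes by the Benjamini-Hochberg method. On the stiff hydrogel 5 of the 10 clock genes fell (Per2, Per3, Nr1d1, Nr1d2 and Dbp) and none rose, where 9.26% of all tested genes were called lower and 10.0% higher. The fall ranged from 1.44-fold for Nr1d1 to 3.52-fold for Dbp. With the fold threshold left aside, 7 of the 10 had an adjusted p under 0.05, all of them lower, the further ones being Per1 and Cry2. The share of all tested genes at this looser threshold was not counted, so the 7 cannot be set against the shares above. Of all tested genes, 22.8% had a log2 fold change below that of Per1 and 22.1% below that of Cry2. The median log2 fold change of the 10 genes was -0.43, beside -0.0087 for all tested genes. In these bulk samples, fewer cells of a type and less RNA per cell cannot be told apart.

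**Figure D1:**
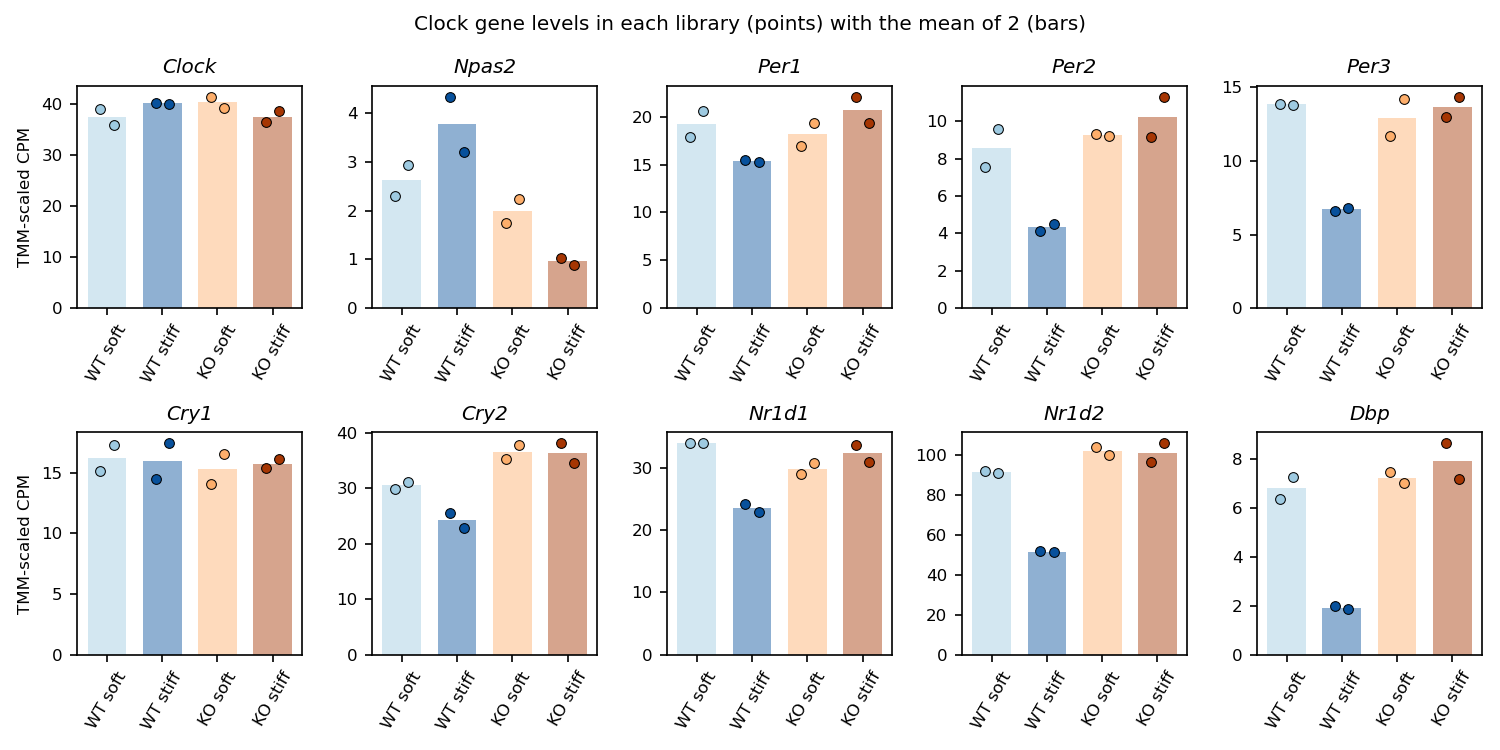
Level of each of the 10 clock genes in TMM-scaled CPM, on a linear axis from 0 with its own range for each gene, by group (points are the 2 libraries and bars their mean). Per2, Per3, Nr1d1, Nr1d2 and Dbp are lower in both WT stiff libraries than in the other 6 libraries, whereas Npas2 is lowest in the 2 KO stiff libraries.

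The activators did not pass the thresholds. Clock (ENSMUSG00000029238, chromosome 5 from 76357715 to 76452639 in the deposited table, whose build was not established) encodes the DNA-binding partner of BMAL1. It was measured at 39.1 and 35.8 CPM in WT soft and at 40.2 and 40.1 CPM in WT stiff. The stiff libraries were the higher ones by a narrow margin, with a log2 fold change of 0.10 (SE 0.070, adjusted p = 0.298 in edgeR, 95% interval -0.05 to 0.24). Npas2 (ENSMUSG00000026077, chromosome 1 from 39232812 to 39402317), which can stand in for CLOCK, was measured at 2.31 and 2.94 CPM in WT soft and at 4.34 and 3.20 CPM in WT stiff. These were 60, 53, 90 and 63 counts, and the stiff libraries lay above the soft ones without overlap. The log2 fold change of Npas2 was 0.54 (SE 0.26, 95% interval -0.01 to 1.08), and its adjusted p in edgeR was 0.108. It was the only one of the 10 with an estimate over 0.5 in the upward direction.

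Of the Period genes, which encode the PER repressors, Per2 and Per3 fell and Per1 did not pass the fold threshold. Per1 (ENSMUSG00000020893, chromosome 11 from 68986043 to 69000786), which responds to glucocorticoids and cAMP, was measured at 17.9 and 20.6 CPM in WT soft and at 15.5 and 15.2 CPM in WT stiff. Both stiff libraries were below both soft ones, and the log2 fold change was -0.32 (SE 0.11, adjusted p = 0.0286 in edgeR). Per2 (ENSMUSG00000055866, chromosome 1 from 91343704 to 91387046), a core repressor, was 7.55 and 9.61 CPM in WT soft and 4.15 and 4.52 CPM in WT stiff. Its log2 fold change was -0.97 (SE 0.17, adjusted p = 0.000173 in edgeR), a level 1.96-fold lower. Per3 (ENSMUSG00000028957, chromosome 4 from 151088109 to 151129122), the member with a lesser part in keeping the rhythm, was 13.9 and 13.8 CPM in WT soft and 6.61 and 6.81 CPM in WT stiff. The groups stood far apart next to the gap within each, and the level was 2.07-fold lower (log2 fold change -1.05, SE 0.13, adjusted p = 4.54e-06 in edgeR).

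The Cryptochrome genes encode the repressors that bind the CLOCK-BMAL1 dimer directly. Cry1 (ENSMUSG00000020038, chromosome 10 from 84967564 to 85020928), whose promoter window above holds an E-box and its variant, was 15.1 and 17.3 CPM in WT soft and 14.5 and 17.4 CPM in WT stiff. The stiff libraries lay on either side of the soft ones, and the log2 fold change of -0.02 had a 95% interval from -0.27 to 0.24 (adjusted p = 0.923 in edgeR). Cry2 (ENSMUSG00000068742, chromosome 2 from 92233991 to 92264388) was 29.8 and 31.2 CPM in WT soft and 25.6 and 22.8 CPM in WT stiff. Both stiff libraries were below the soft ones, with a log2 fold change of -0.33 (SE 0.085, adjusted p = 0.00416 in edgeR), short of the fold threshold.

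Both REV-ERB receptors fell. Nr1d1 (ENSMUSG00000020889, chromosome 11 from 98658758 to 98666159) was 33.9 CPM in each of the WT soft libraries and 24.2 and 22.9 CPM in WT stiff. Its log2 fold change was -0.53 (SE 0.080, adjusted p = 3.38e-05 in edgeR), just past the fold threshold, and -0.49 without WT stiff replicate 2, where it was not called. Nr1d2 (ENSMUSG00000021775, chromosome 14 from 4230569 to 4265642) was the most abundant of the 10 genes, at 92.1 and 90.9 CPM in WT soft and 52.0 and 51.3 CPM in WT stiff. The level was 1.77-fold lower on the stiff hydrogel (log2 fold change -0.82, SE 0.058), and with an adjusted p of 1.68e-09 in edgeR it had the lowest p-value of the clock genes. Arntl and Npas2, which these receptors repress, had log2 fold changes of 0.42 (adjusted p = 0.0246 in edgeR) and 0.54 in WT, and neither was called. In KO the log2 fold changes were 0.12 for Nr1d1, -0.01 for Nr1d2, 0.03 for Arntl and -1.04 for Npas2, none of them called. A link between the receptors and these 2 genes was not tested.

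Dbp (ENSMUSG00000059824, chromosome 7 from 45354512 to 45359627) had the largest change of the 10 genes. It was 6.39 and 7.28 CPM in WT soft, from 166 and 131 counts, and 1.98 and 1.88 CPM in WT stiff, from 41 and 37 counts. Every stiff library was thus below every soft one by a wide margin. The level was 3.52-fold lower, with a log2 fold change of -1.82 (SE 0.19, adjusted p = 4.87e-07 in edgeR), and 1.41% of all tested genes had a log2 fold change as low or lower.

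**Figure D2:**
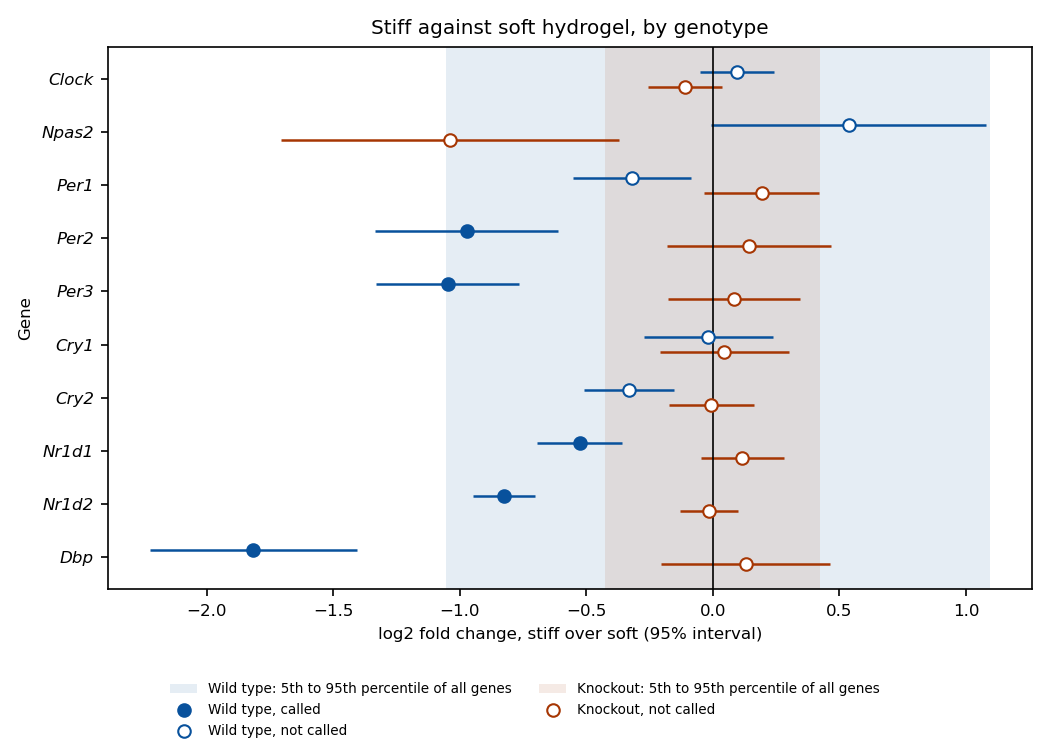
Log2 fold change of each clock gene between the stiff and the soft hydrogel in WT and in KO hepatocytes, with lines for the 95% interval derived from edgeR's F statistic, filled points for called genes and shaded bands for the range between the 5th and 95th percentile of all tested genes (-1.05 to 1.10 in WT, -0.43 to 0.42 in KO). In WT the estimates run from -1.82 for Dbp to 0.54 for Npas2, and in KO no gene is called.

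The libraries of the WT groups did not overlap for 9 of the 10 genes, with 7 lower and 2 higher (Clock and Npas2) on the stiff hydrogel. With 2 libraries in each group this is common: 34.8% of all tested genes had both stiff libraries below both soft ones, and 34.0% had them above.

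The second question was whether the same genes respond to stiffness in hepatocytes without Yap and Taz. None of the 10 clock genes was called between KO stiff and KO soft, in either direction, and the smallest unadjusted p was that of Npas2 (0.00435). This was the only 1 of the 10 with an unadjusted p under 0.05, a share that was not counted over all tested genes. DESeq2 called none of the 10 either. The background of called genes was as low, since 0.0140% of all tested genes were called higher and 0.00700% lower, 3 genes in all. The median log2 fold change of the clock genes was 0.06, beside 0.0076 for all tested genes. Both stiff libraries were above both soft ones for Nr1d1 and below them for Clock and Npas2, where 20.9% and 17.2% of all tested genes were placed so, and for the other 7 genes the groups overlapped.

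Dbp was 7.49 and 7.01 CPM in KO soft and 8.66 and 7.21 CPM in KO stiff. These ranges overlapped, and the log2 fold change of 0.13 had a 95% interval from -0.20 to 0.46, which leaves out a fall of the size seen in WT. Per2 was 9.29 and 9.20 CPM in KO soft and 9.13 and 11.3 CPM in KO stiff (log2 fold change 0.14, 95% interval -0.18 to 0.47). Per3 was 11.7 and 14.2 CPM in KO soft and 13.0 and 14.4 CPM in KO stiff (log2 fold change 0.08, 95% interval -0.18 to 0.34). For both Period genes the KO stiff libraries were above both WT stiff libraries. Nr1d1 was 28.9 and 30.7 CPM in KO soft and 33.7 and 30.9 CPM in KO stiff (log2 fold change 0.12, 95% interval -0.05 to 0.28). Nr1d2 was 103.9 and 100.1 CPM in KO soft and 96.3 and 105.9 CPM in KO stiff, with the narrowest interval of the 10 genes (log2 fold change -0.01, 95% interval -0.13 to 0.10). A change of Nr1d2 as large as the log2 value of -0.82 in WT lies outside that interval.

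Among the other clock genes, Per1 was 17.0 and 19.4 CPM in KO soft and 22.1 and 19.3 CPM in KO stiff (log2 fold change 0.19, adjusted p = 0.685 in edgeR). Clock was 41.4 and 39.3 CPM in KO soft and 36.4 and 38.5 CPM in KO stiff (log2 fold change -0.11, 95% interval -0.26 to 0.04). Cry1 was 14.1 and 16.5 CPM in KO soft and 15.4 and 16.1 CPM in KO stiff (log2 fold change 0.05, 95% interval -0.21 to 0.30). Neither the activator nor the repressor passed the test in either genotype. Cry2 was 35.3 and 37.7 CPM in KO soft and 38.1 and 34.5 CPM in KO stiff (log2 fold change -0.01, 95% interval -0.17 to 0.16). Npas2 was 1.76 and 2.24 CPM in KO soft and 1.03 and 0.889 CPM in KO stiff, from 45, 45, 22 and 18 counts. Its stiff libraries were below its soft ones, the opposite order to WT, with a log2 fold change of -1.04 (SE 0.32), but its adjusted p was 0.565 in edgeR.

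The test of the difference between these effects, KO minus WT, called 7 of the 10 clock genes. Per1, Per2, Per3, Nr1d1, Nr1d2 and Dbp had a higher stiffness effect in KO, and Npas2 a lower one, where 8.64% of all tested genes were called higher and 8.21% lower. Dbp had the largest difference, with a log2 value of 1.94 (SE 0.25, adjusted p = 9.83e-06 in edgeR). The differences of Per3 and Per2 were 1.13 (SE 0.18, adjusted p = 0.000112) and 1.12 (SE 0.23, adjusted p = 0.00122 in edgeR). Nr1d2 followed with 0.81 (SE 0.080, adjusted p = 3.18e-07 in edgeR) and Nr1d1 with 0.64 (SE 0.11, adjusted p = 0.000232). These are the 5 genes that fell in WT. The difference of Npas2 was -1.58 (SE 0.41, adjusted p = 0.00696 in edgeR), with opposite signs in the 2 genotypes and neither effect called on its own. Per1, at 0.51 (SE 0.16, adjusted p = 0.0184 in edgeR), was close to the fold threshold. It was not called with DESeq2 (adjusted p = 0.0740) or in 5 of the 8 fits that left out 1 library. Cry2 had a difference of 0.32 (adjusted p = 0.0438 in edgeR), Clock of -0.21 (adjusted p = 0.132) and Cry1 of 0.06 (adjusted p = 0.826), and none of these was called. The median over the 10 genes was 0.58, beside 0.015 for all tested genes. The stiffness effects and their difference share their libraries, so they are set side by side and not as separate evidence.

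The third question was how the knockout compares with WT on each hydrogel. On the soft hydrogel no clock gene was called, where 2.02% of all tested genes were called higher and 4.65% lower in KO. The unadjusted p in edgeR was under 0.05 for 3 of the 10. The share of all tested genes with such a p was not counted, so this count has no background beside it. Cry2 was higher in both KO libraries, with a log2 fold change of 0.26 (SE 0.081, adjusted p = 0.0306 in edgeR), under the fold threshold. Nr1d2 had a log2 fold change of 0.16 (adjusted p = 0.0547 in edgeR) and Nr1d1 of -0.19 (adjusted p = 0.108). The Dbp levels on the soft hydrogel overlapped between the genotypes (log2 fold change 0.09, 95% interval -0.24 to 0.43). Both KO libraries were above both WT ones for Clock, Cry2 and Nr1d2 (27.6% of all tested genes) and below them for Npas2 and Nr1d1 (28.6%), and DESeq2 also called none of the 10.

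On the stiff hydrogel 6 of the 10 clock genes were called, with Per2, Per3, Cry2, Nr1d2 and Dbp higher and Npas2 lower in KO. Of all tested genes, 13.7% were called higher and 15.0% lower in this comparison. Dbp was 4.11-fold higher in KO (log2 fold change 2.04, SE 0.19, adjusted p = 5.25e-08 in edgeR), with both KO libraries above 7 CPM and both WT libraries under 2 CPM. Per2 was 2.36-fold higher (log2 fold change 1.24, SE 0.17, adjusted p = 7.29e-06 in edgeR) and Per3 2.04-fold higher (log2 fold change 1.03, SE 0.13, adjusted p = 3.98e-06). Nr1d2 was 1.96-fold higher (log2 fold change 0.97, SE 0.058, adjusted p = 8.75e-11 in edgeR) and Cry2 1.501-fold higher (log2 fold change 0.59, SE 0.084, adjusted p = 1.14e-05), though Cry2 was not called without WT stiff replicate 2 (0.497). Npas2 stood at the other end, 3.91-fold lower in KO (log2 fold change -1.97, SE 0.30, adjusted p = 2.25e-05 in edgeR). Nr1d1 and Per1 had log2 fold changes of 0.46 (adjusted p = 0.000116 in edgeR) and 0.43 (adjusted p = 0.00329), short of the fold threshold. Clock and Cry1 had log2 fold changes of -0.10 (95% interval -0.25 to 0.05) and -0.02 (95% interval -0.27 to 0.24). The libraries of the genotypes overlapped for Cry1 alone, with 7 genes higher and 2 lower in both KO libraries, against 37.7% and 36.8% of all tested genes. The WT stiff libraries are part of this comparison and of the stiffness effect in WT.

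**Figure D3:**
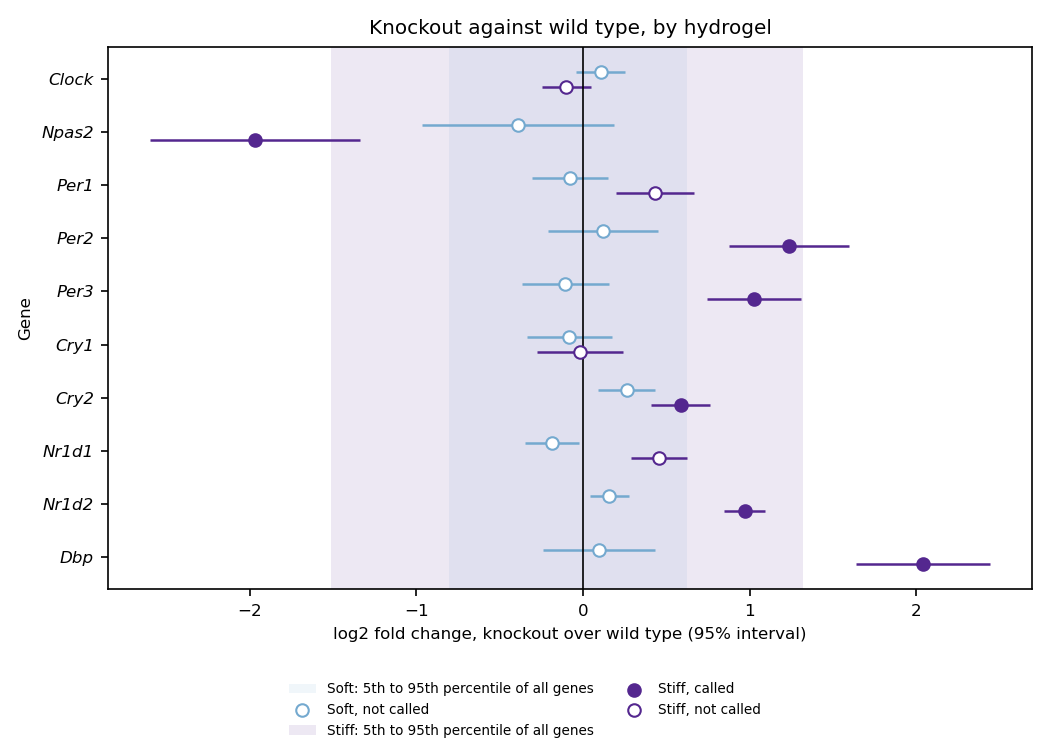
Log2 fold change of each clock gene in KO against WT on either hydrogel, with lines for the 95% interval, filled points for called genes and shaded bands from the 5th to the 95th percentile of all tested genes (-0.80 to 0.62 on soft, -1.51 to 1.32 on stiff). On the soft hydrogel no gene is called, and on the stiff hydrogel the estimates run from -1.97 for Npas2 to 2.04 for Dbp.

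Levels of different genes were compared per kilobase of gene length as the deposited table gives it. In WT soft the order, in CPM per kb, was Nr1d2 (16.9 ± 0.155), Nr1d1 (11.03 ± 0.00081), Cry1 (4.85 ± 0.452), Cry2 (4.82 ± 0.151), Per1 (3.42 ± 0.339), Clock (2.73 ± 0.168), Dbp (2.28 ± 0.208), Per2 (1.46 ± 0.249), Per3 (1.44 ± 0.0055) and Npas2 (0.548 ± 0.0934; SD, n = 2 each). The neighbours Cry1 and Cry2, and Per2 and Per3, were closer than their spread. In WT stiff Nr1d2 and Nr1d1 still led, at 9.55 ± 0.0864 and 7.66 ± 0.296 CPM per kb (SD, n = 2 each). Dbp had the lowest mean there, at 0.644 ± 0.0229 CPM per kb, below Per3 (0.698 ± 0.0149), Per2 (0.740 ± 0.0453) and Npas2 (0.787 ± 0.168; SD, n = 2 each). Per3, Per2 and Npas2 were within each other's spread, and the gap between Dbp and Npas2 was also smaller than the SD of Npas2. In KO stiff Dbp was 2.65 ± 0.343 CPM per kb, next to Clock at 2.73 ± 0.111 CPM per kb (SD, n = 2 each), and Npas2 was last at 0.200 ± 0.0208 CPM per kb.

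Across the 8 libraries the 5 genes that fell in WT had like profiles. Pearson's r of log2 CPM between any pair of Per2, Per3, Nr1d1, Nr1d2 and Dbp ran from 0.831 for Per2 and Nr1d1 to 0.979 for Nr1d2 and Dbp. The libraries fall into 4 groups of 2, and WT stiff stands apart for each of these genes, so the values describe the group pattern. Cry1 had r between -0.463 and 0.208 with the others. The tested genes with at least 100 counts on average whose profile was most like that of Dbp were Abcc6 (r = 0.999), Arhgef12 (r = 0.996) and Gm11789 (r = 0.995). Those most like Npas2 were Dnajc24 (r = 0.966), Fam3a (r = 0.960) and Wasf1 (r = 0.959), all over 8 libraries.

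Further genes of the clock were taken in 4 lists. Of 10 other clock transcription factors 8 were tested, and on the stiff hydrogel in WT 2 rose and 1 fell. For this and the next 3 lists the background is that of all tested genes, 10.0% called higher and 9.26% lower. Bhlhe40 and Bhlhe41, which encode the DEC repressors that bind E-boxes, rose by log2 fold changes of 0.70 (SE 0.046, adjusted p = 6.02e-10 in edgeR) and 0.68 (SE 0.18, adjusted p = 0.00575). Ciart, a repressor of the activator dimer whose promoter window above holds 3 E-boxes, fell by a log2 fold change of -1.10 (SE 0.30, adjusted p = 0.00727 in edgeR). Ciart had 69 and 46 counts in WT soft and 23 and 26 in WT stiff. Arntl (0.42), Nfil3 (0.39), Rora (0.26), Tef (-0.45) and Hlf (-0.47) had adjusted p under 0.05 without passing the fold threshold. Tef and Hlf encode the relatives of DBP that bind the same D-boxes. Arntl2 and Rorb had too few counts to be tested, with at most 13 counts of Arntl2 in a library and none of Rorb. The median of the 8 was 0.33.

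Of 12 kinases, ubiquitin ligases and cofactors that act on clock proteins, Timeless alone was called in WT. It rose by a log2 fold change of 1.54 (SE 0.14, adjusted p = 8.29e-08 in edgeR), from 5.81 ± 0.442 to 16.9 ± 1.02 CPM (SD, n = 2 each). Timeless is also a component of the replication fork. The lowest estimate was that of Fbxl21, a ligase for cryptochromes, at -0.94 (adjusted p = 0.141 in edgeR), from 7 to 30 counts in a library. The median of the 12 was -0.07.

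Of 11 genes named as outputs of the liver clock 10 were tested (Elovl3 was not), and 2 rose and 2 fell in WT. Noct, a phosphatase of nicotinamide dinucleotides with a daily rhythm in liver, rose from 57.9 ± 3.29 to 150.8 ± 6.14 CPM (log2 fold change 1.38, adjusted p = 4.35e-12 in edgeR). Tfrc, the transferrin receptor, rose from 30.1 ± 0.797 to 64.9 ± 0.898 CPM (log2 fold change 1.11, adjusted p = 2.30e-10 in edgeR). Gys2, the liver glycogen synthase, fell from 54.5 ± 0.565 to 18.6 ± 0.969 CPM (log2 fold change -1.55, adjusted p = 4.84e-12 in edgeR), and Wee1, a cell cycle kinase, from 67.4 ± 2.17 to 32.7 ± 1.73 CPM (log2 fold change -1.04, adjusted p = 2.76e-10; SD, n = 2 each). The list did not move one way, and its median was 0.17. Of 10 glucocorticoid and cAMP responsive genes, Sgk1, a kinase induced by glucocorticoids, rose (log2 fold change 1.22, adjusted p = 1.87e-07 in edgeR) and Klf9, a transcription factor induced by them, fell (log2 fold change -0.73, adjusted p = 6.83e-08). Nr3c1, the glucocorticoid receptor, had a log2 fold change of 0.08 (adjusted p = 0.272 in edgeR), and the median of the 10 was -0.06.

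**Figure D4:**
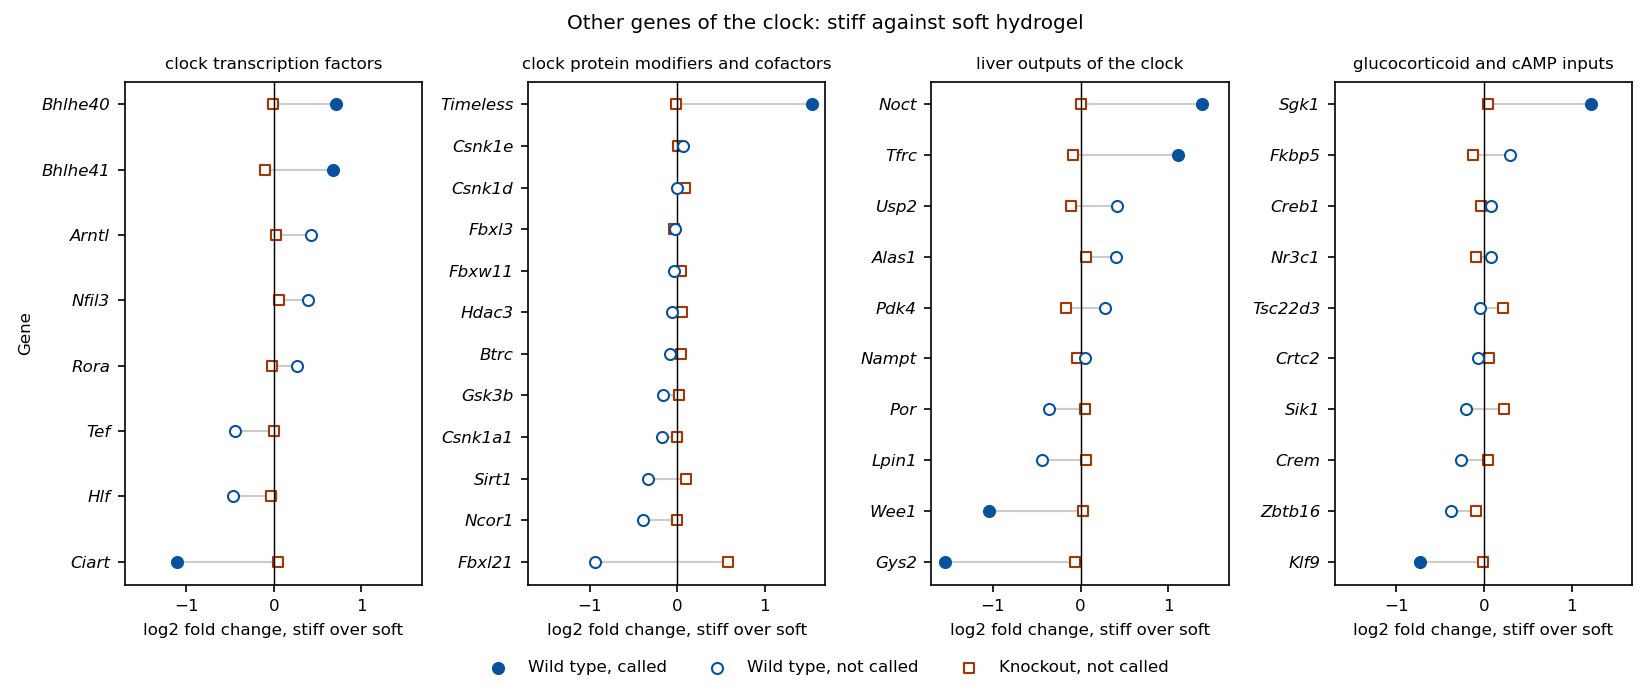
Log2 fold change between the stiff and the soft hydrogel in WT and KO hepatocytes for the tested genes of the 4 further lists, with circles for WT, squares for KO and filled symbols for called genes. In WT the extremes are Gys2 at -1.55 and Timeless at 1.54, and in KO no gene of these lists is called.

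In KO hepatocytes no gene of the 4 lists was called between the hydrogels, as for nearly all tested genes (0.0140% called higher and 0.00700% lower). The farthest from 0 was Fbxl21, with a log2 fold change of 0.58 (SE 0.43, adjusted p = 0.762 in edgeR). In the test of KO minus WT, 10 genes of the lists were called, each with the sign opposite to its WT effect, where 8.64% of all tested genes were called higher and 8.21% lower. They were Ciart (1.15), Bhlhe40 (-0.71) and Bhlhe41 (-0.78) among the transcription factors, Timeless (-1.55), the outputs Wee1 (1.08), Gys2 (1.48), Noct (-1.38) and Tfrc (-1.19), and Klf9 (0.72) and Sgk1 (-1.18). These are the same 10 genes that were called in WT. The difference contains the WT effect. With little change in KO, the opposite signs and the same genes largely follow from the subtraction and are not separate evidence. Fbxl21 had the highest value of its list, 1.52, and was not called (adjusted p = 0.0916 in edgeR).

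Markers of other liver cells moved with the WT stiff group. In the order WT soft, WT stiff, KO soft and KO stiff, the 6 markers of Kupffer cells and macrophages summed to 61.6 to 62.8, 42.6 to 48.4, 85.9 to 86.2 and 86.4 to 86.7 CPM. Cd68 made up most of each of these sums, at means of 46.2, 35.2, 57.6 and 58.6 CPM in the same order. Its log2 fold change between WT stiff and soft was -0.39, short of the fold threshold. The 6 endothelial markers summed to 51.9 to 57.1, 37.9 to 38.1, 66.2 to 69.0 and 68.1 to 71.1 CPM, and the 8 markers of stellate cells and fibroblasts to 32.5 to 32.7, 21.5 to 23.5, 46.9 to 47.1 and 48.9 to 51.1 CPM. These sums were lower in WT stiff than in WT soft, and higher in KO than in WT on either hydrogel. Per2, Per3, Nr1d2 and Dbp were also lower in WT stiff and, on the stiff hydrogel, higher in KO. On soft, none of these 4 clock genes was called between the genotypes. Their log2 fold changes there were 0.12, -0.11, 0.16 and 0.09 in the same order. In WT stiff against soft, 3 of 6 Kupffer, 2 of 6 endothelial and 3 of 7 tested stellate markers were called lower, and 1 stellate marker, Col1a1, higher, where 9.26% of all tested genes were called lower and 10.0% higher. Lrat, a defining stellate marker, was at 0 in WT stiff and at a mean of 0.056, 0.099 and 0.095 CPM in WT soft, KO soft and KO stiff, all under the limit that 3 counts set. The 6 cholangiocyte markers went the other way, at 571 to 602, 622 to 626, 365 to 367 and 341 to 351 CPM. The 4 lymphocyte markers summed to between 0.813 and 2.79 CPM, with Cd3e at 0 in every library. The part of these cells in the clock gene results was not tested.

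Some clock genes overlap other genes, and the strand setting of the counting and its rule for shared reads were not given in the sources used here, although the study's methods name dUTP, which marks strand, for the cDNA. Nr1d1 overlaps Thra on the other strand over 1075 bases, and Thra had a log2 fold change of 0.05 between WT stiff and soft (adjusted p = 0.803 in edgeR). Dbp overlaps Sphk2 on the other strand over 737 bases. Sphk2 held more counts than Dbp, with a mean of 617 against 129.875 per library, and a log2 fold change of 0.15 (adjusted p = 0.134 in edgeR). Neither partner was called in WT. In KO, Thra had a log2 fold change of 0.46 between stiff and soft (adjusted p = 0.543 in edgeR). Thra was called lower in KO than in WT on soft (log2 fold change -0.54, adjusted p = 0.00591 in edgeR), where Nr1d1 had -0.19. Per3 lies inside Camta1 on the same strand, which had a mean of 91.75 counts and a log2 fold change of 0.41 (adjusted p = 0.119 in edgeR). Of Nr1d2, 3.89% of the 64-base windows of the longest transcript occur in another annotated gene, and the other 9 genes shared none.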

How the data were processed

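RNA of mouse primary hepatocytes was sequenced as poly-A selected libraries, 2 in each of 4 groups. Alignment by the authors used HISAT2 2.0.5 (per the labels), and reads were summed per gene by featureCounts. The deposited values are raw counts without normalization, 1 column per library, beside gene lengths and positions. The labels name mm9, which was not checked here, and positions differed from the GRCm38 annotation used here (2.83% of 52073 genes matched by ID had the same position), so they are printed as deposited. Rules for strand and for reads on several genes were not given in the sources used here.

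Tests were run with edgeR 4.0.16 in R 4.3.3. Genes were filtered with filterByExpr by group, scaled by TMM, and fitted with glmQLFit over all 8 libraries (4 residual degrees of freedom). Each of 5 comparisons used glmQLFTest with Benjamini-Hochberg adjustment over 14279 genes. DESeq2 1.42.0, other scalings, filters, fold thresholds, fits of the 4 libraries compared, robust empirical Bayes, a replicate term and leaving out each library were alternatives. Profiles were compared on log2 CPM with a prior count of 2. Figures came from matplotlib 3.10.9 (Python 3.11.15), and the steps were tested on simulated data.

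The clock genes and the further lists were chosen with earlier results of these data known. The text names all 10 clock genes, the list members called in WT or in the interaction, the extremes of each list (1 list entry is not reported here), and the 3 genes most like the clock genes with the largest estimated rise and fall. Genes added for an overlap with a clock gene, list members given beside a result, and the genes whose promoters are printed were chosen after their values were seen. Replicates of a group differed by more than sampling noise (chi-square per degree of freedom 2.62 to 5.45). As nothing says that they came from separate animals, p-values measure only the spread between these libraries, which may be technical. The deviations of same-numbered libraries had correlations between -0.101 and 0.042, which gave no sign that the replicate numbers pair the libraries. With 2 libraries in each group this cannot exclude a pairing.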

Additional observations from a re-analysis of the deposited data

Results flagged for a closer look

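The stiffness effect differed between the genotypes for 7 of the 10 clock genes, by edgeR's test of the difference between KO and WT in their log2 fold changes from soft to stiff. Of all tested genes, 8.64% were called higher and 8.21% lower in this test. The difference contains the WT effect and is not separate evidence from it. The difference was 1.94 for Dbp, 1.13 for Per3, 1.12 for Per2, 0.81 for Nr1d2, 0.64 for Nr1d1 and 0.51 for Per1, where KO had the higher effect, and -1.58 for Npas2, where KO had the lower one. Per1 was the one of the 7 nearest to the threshold, and Npas2 the one with the fewest counts, 18 to 90 in a library.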

How the results depend on the processing

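Over all alternatives run, none of the clock genes called in a comparison changed sign, and no scaling moved the median of all tested genes by as much as 0.1 on the log2 scale. With the replicate block (a term for the replicate number) the number of clock genes called stayed at 5 lower in WT, 0 in KO, 0 on soft, 5 higher and 1 lower in KO on stiff, and 6 higher and 1 lower in the interaction, and it changed no other call.

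With an absolute log2 fold change over 1, 2 genes were lower in WT, 3 higher and 1 lower in KO on stiff, and 3 higher and 1 lower in the interaction. With no minimum fold change, 1 gene was higher in KO on soft. The shares of all tested genes called at either of these thresholds were not counted, so these counts show only how the calls depend on the threshold. Per1 lost its call in the interaction under DESeq2 (0.50, adjusted p = 0.0740), with no filter on low counts (0.49), and without WT soft replicate 2, either WT stiff replicate, KO soft replicate 1 or KO stiff replicate 1 (0.40 to 0.51). Without WT stiff replicate 2, Nr1d1 in WT (-0.49) and Cry2 in KO on stiff (0.50) fell short of the fold threshold. Nr1d1 in KO on stiff passed it by library size only (0.51) or without KO stiff replicate 2 (0.50), and Per1 without KO stiff replicate 2 (0.52). The causes of these changes were not tested.

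Cry1 in KO on stiff was 0.039 by library size only. Signs that turned with 1 library left out were those of uncalled genes. The ranges were -0.16 to 0.12 for Cry1 in WT, and in KO stiff against soft -0.063 to 0.22 for Per3, -0.075 to 0.15 for Cry1, -0.092 to 0.051 for Nr1d2, -0.084 to 0.055 for Cry2, -0.013 to 0.25 for Dbp and -0.026 to 0.29 for Per2. In KO against WT on soft they were -0.052 to 0.29 for Per2, -0.18 to 0.018 for Per1, -0.20 to 0.032 for Cry1 and -0.25 to 0.035 for Per3. Cry1 ranged from -0.16 to 0.11 in KO against WT on stiff and from -0.080 to 0.19 in the interaction. Depth limits Npas2 most, whose intervals were the widest of the 10 genes.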
